A study of Rattus norvegicus with 9 samples.

Results

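The expression of 10 genes for basement membrane and collagen VI was followed in female Sprague-Dawley rats, in the pubococcygeus, which is a skeletal muscle supporting the pelvic organs. They are Col4a1 and Col4a2 (collagen IV), Col6a1, Col6a2 and Col6a3 (collagen VI), the laminin chain genes Lama2, Lamb1 and Lamc1, and Nid1 and Hspg2. The genes were chosen by name, for the matrix component they encode, with earlier results of these data known. Each matched 1 row of the deposited tables, and all 10 passed the filter on low counts, as 10 of 16256 genes tested and of 30518 rows. RNA was sequenced from 9 libraries in 3 groups of 3. In the stimulated group the rats had the model of stress urinary incontinence (SUI) and then pelvic floor electrical stimulation (PFES) through the vagina, which began 1 week after the model and ran at 50 Hz and 20 mA with pulses of 200 µs for 30 min a day, 5 days a week, over 2 weeks. In the SUI group the rats had the model alone: both ovaries were removed and the vagina was distended by an 8 Fr balloon catheter holding 3 mL of saline and pulled by 120 g for 4 h. In the blank group the rats were left untouched. The stimulated and SUI rats thus share ovary loss, distension and surgery, which cannot be told apart from each other against blank, and no group that received the electrode without current is among the 9 libraries. The study randomised 24 rats, 8 to a group, and the labels do not say how 3 libraries relate to 8 rats, so p-values measure the spread between libraries, which may be technical.

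A basement membrane is the thin sheet of matrix that wraps every muscle fibre, capillary and Schwann cell. Laminin trimers and collagen IV trimers each form a network in it, nidogen and perlecan join the networks, and receptors on the cell surface, dystroglycan and integrins, hold the fibre to the laminin. Collagen VI forms beaded microfibrils just outside this sheet and ties it to the fibrillar collagen between the fibres. In skeletal muscle collagen VI comes mostly from interstitial fibroblasts and fibro-adipogenic progenitors, whereas collagen IV is also made by fibres, endothelial cells and pericytes. Inherited loss of Lama2 or of a collagen VI chain causes muscular dystrophy in humans.

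Values are CPM, counts scaled to library size and TMM factors, unless FPKM, fragments per kilobase of transcript scaled to library depth, is named. Libraries held 50833480 to 147650284 counts, and the 10 genes had between 1736 and 44439 counts in every library, so that counting error is small beside the spread between libraries. Blank replicate 1 stood apart: it was the shallowest library, 32.9% of its counts were mitochondrial transcripts against 13.4% to 17.7% in the others, and its TMM factor was 0.744, while that of SUI replicate 1 was 1.30 and the other 7 lay between 0.889 and 1.09. Genes that mark muscle fibres summed to 104048 to 200233 CPM, and the 7 measured were detected in every library of the labelled muscle. In bulk RNA, fewer cells of a type and less RNA per cell cannot be told apart.

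By mean CPM the chain families were ordered differently across the groups, and this order was not tested. Against SUI, the stimulated muscles had higher mean CPM for each of the 10 genes, by log2 fold changes of 0.26 (Lama2) to 1.21 (Col6a3). Against blank, the SUI muscles had lower mean CPM for the 3 collagen VI chains, by -0.83 to -1.14, and nearly the same for collagen IV and Lama2. Lamb1 and Lamc1 were also lower in SUI over blank, at -0.46 and -0.47. Stimulated muscles against blank muscles had higher collagen IV, Lamb1, Nid1 and Hspg2, at 0.66 to 0.81, and nearly the same collagen VI and Lamc1. None of these differences passed the threshold adjusted over all genes tested. Those called nearly the same changed sign in some alternative settings.

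With edgeR's quasi-likelihood test at an adjusted p under 0.05, 0 of the 10 genes were called in each comparison, where 0.0123% of all genes were called in stimulated over SUI, 0.00615% in stimulated over blank and 0% in SUI over blank. Without adjustment, 9 of 10 had an edgeR p under 0.05 in stimulated over SUI, all higher, beside 5.23% of all genes in that direction. In stimulated over blank there were 5 of 10, all higher, beside 1.96%, and in SUI over blank 4 of 10, all lower, beside 5.34%. DESeq2 called 1 of the 10, Hspg2 in stimulated over SUI (adjusted p = 0.0363), and voom with sample weights called 0. DESeq2 called 1.28% of all genes with an adjusted p in that comparison, 0.13% in stimulated over blank and 1.09% in SUI over blank, and voom called 0.252% in stimulated over SUI. Because the genes were chosen with earlier results of these data known, these counts are a description and not a test. The unadjusted counts of the 10 fell when some single libraries were left out, which also leaves fewer libraries for every other gene. The shares of all genes above are of the full fit with TMM, and none is given for the settings that follow. Whether the 10 genes fell more than all genes therefore cannot be read from the counts that follow. Stimulated over SUI went to 3 of 10 without stimulated replicate 2, to 4 without SUI replicate 2 and to 5 without SUI replicate 3. Stimulated over blank went to 0 without stimulated replicate 2 or blank replicate 1, to 1 without blank replicate 3, and to 3 without stimulated replicate 3 or blank replicate 2. SUI over blank went to 0 without SUI replicate 2 or blank replicate 1, to 1 without SUI replicate 3 and to 2 without blank replicate 2. Scaled by library totals in place of TMM, all genes had median log2 fold changes of -0.11 in stimulated over SUI, 0.09 in stimulated over blank and 0.19 in SUI over blank, and the unadjusted counts of the 10 were 3, 0 and 1.

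**Figure D1:**
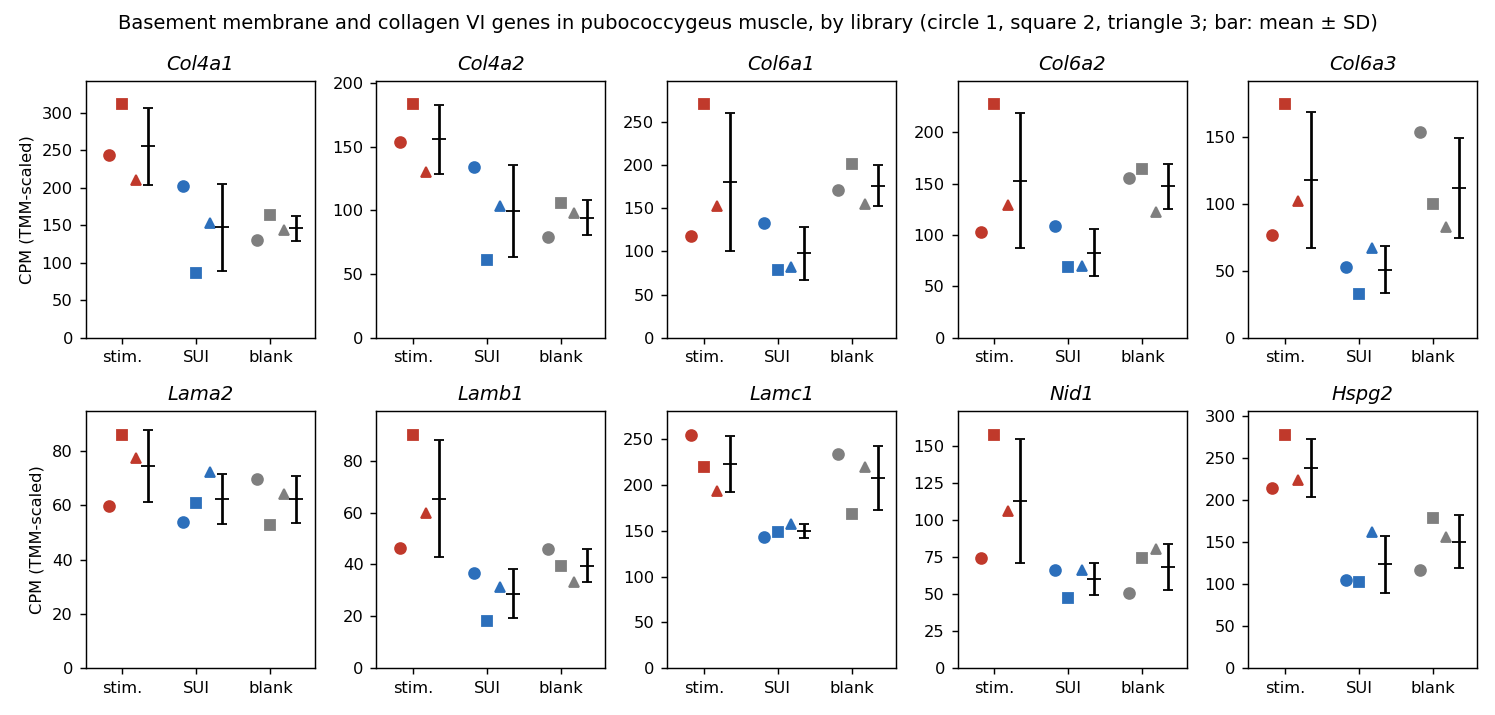
CPM (y axis, from 0) of each of the 10 genes in the stimulated, SUI and blank libraries; circle, square and triangle are replicates 1, 2 and 3, and the bar gives mean ± SD (n = 3). Stimulated replicate 2 is the highest of the 9 libraries for 9 of the 10 genes, and SUI replicate 2 the lowest for 8.

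Collagen IV in muscle is built mostly from the chains of Col4a1 and Col4a2. Col4a1 (ENSRNOG00000016281, chromosome 16, 78183533 to 78294412, plus strand, mRatBN7.2) measured 244, 311 and 210 CPM in stimulated muscles, 203, 86.2 and 153 CPM in SUI muscles, and 131, 163 and 143 CPM in blank muscles. In CPM all 3 stimulated libraries lay above every SUI and every blank library, and the SUI libraries spread on both sides of blank. In FPKM SUI replicate 1 (33.3) lay above stimulated replicates 1 and 3 (27.5 and 26.1). The log2 fold change of Col4a1 was 0.79 ± 0.30 (SE) in stimulated over SUI, 0.81 ± 0.30 in stimulated over blank and 0.01 ± 0.30 in SUI over blank. Col4a2 (ENSRNOG00000023972, chromosome 16, 78047602 to 78183839, minus strand) measured 154, 183 and 130 CPM in stimulated muscles, 134, 61.3 and 103 CPM in SUI muscles, and 79.3, 106 and 97.7 CPM in blank muscles. Its stimulated libraries lay above all blank libraries, and SUI replicate 1 lay just above stimulated replicate 3. The log2 fold changes of Col4a2 were 0.65 ± 0.29, 0.72 ± 0.29 and 0.08 ± 0.29 in the same order, with edgeR adjusted p of 0.62, 0.898 and 0.934.

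The pair sits head to head. The annotated spans of Col4a1 and Col4a2 overlap by 307 bases on opposite strands, and the sources used here do not state whether counting used strand, so reads from the overlap could have gone to either gene. In RefSeq's GRCr8 tables the windows of 250 bases before to 50 bases after each start overlap by 176 bases. The 2 starts lie on opposite strands with 76 bases between them. The Col4a1 window holds both, and it is shown because a single stretch lies before both members of the pair (GRCr8, chr16:84885347-84885646, plus strand; capitals mark the bases between the starts, with Col4a2 read leftward and Col4a1 rightward from there).
Col4a1 and Col4a2: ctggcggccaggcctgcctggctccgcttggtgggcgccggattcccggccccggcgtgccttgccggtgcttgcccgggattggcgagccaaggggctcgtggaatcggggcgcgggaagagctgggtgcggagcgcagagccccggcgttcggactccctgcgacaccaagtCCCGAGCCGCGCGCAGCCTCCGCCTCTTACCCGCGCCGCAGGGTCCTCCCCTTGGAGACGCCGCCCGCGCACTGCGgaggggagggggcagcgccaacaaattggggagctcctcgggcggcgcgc
The Col4a1 window holds 38 CpG, a number that 4.23% of the 33469 promoter windows of the table reach, where the median window has 7. It holds 2 GC boxes (GGGCGG) and 2 CCAAT boxes (CCAAT), counted on both strands, and no TATAAA.

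Within a library the ratio of the chains needs no scaling between libraries. In FPKM, Col4a1 over Col4a2 was 1.63, 1.75 and 1.66 in stimulated muscles, 1.56, 1.44 and 1.52 in SUI muscles, and 1.70, 1.58 and 1.51 in blank muscles. The ratio therefore stayed between 1.44 and 1.75 while Col4a1 itself varied 3.61-fold in CPM over the 9 libraries. The stimulated ratios lay above the SUI ratios without overlap, by 0.16 on the log2 scale (exact two-sided permutation p = 0.1, the smallest that 3 against 3 allows, and 0.6 adjusted over 24 tests of 8 ratios).

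Collagen VI gave the lowest values in SUI muscles relative to blank. Col6a1 (ENSRNOG00000001249, chromosome 20, 11905957 to 11924597, plus strand) measured 118, 270 and 153 CPM in stimulated muscles, 133, 78.8 and 82.0 CPM in SUI muscles, and 171, 202 and 155 CPM in blank muscles. In CPM every SUI library lay below every blank library, and the stimulated libraries spanned both groups. In FPKM SUI replicate 1 (34.1) lay above blank replicates 1 and 3 (24.7 and 32.0) for Col6a1. Its log2 fold change was 0.88 ± 0.33 in stimulated over SUI, 0.04 ± 0.33 in stimulated over blank and -0.84 ± 0.33 in SUI over blank. Col6a2 (ENSRNOG00000001254, chromosome 20, 12021767 to 12047248, plus strand), the neighbour of Col6a1, measured 102, 227 and 129 CPM in stimulated muscles, 109, 69.3 and 70.1 CPM in SUI muscles, and 156, 164 and 122 CPM in blank muscles. Its order of libraries resembled that of Col6a1. The log2 fold changes of Col6a2 were 0.89 ± 0.32 in stimulated over SUI, 0.05 ± 0.32 in stimulated over blank and -0.83 ± 0.32 in SUI over blank (edgeR adjusted p = 0.521, 0.982 and 0.552). In FPKM SUI replicate 1 (31.2) likewise lay above blank replicates 1 and 3 (25.3 and 28.3).

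Col6a3 (ENSRNOG00000019648, chromosome 9, 91361583 to 91439471, minus strand) encodes the longest of the 3 common chains, whose tail is cut off as the fragment endotrophin. It measured 77.2, 175 and 102 CPM in stimulated muscles, 53.0, 32.5 and 67.4 CPM in SUI muscles, and 154, 100 and 82.7 CPM in blank muscles. The SUI libraries lay below all others, and blank replicate 1 was the highest blank library. Col6a3 had the widest range of the 10 genes, 5.37-fold between stimulated replicate 2 and SUI replicate 2. Col6a3 had log2 fold changes of 1.21 ± 0.38 in stimulated over SUI (edgeR adjusted p = 0.5) and -1.14 ± 0.38 in SUI over blank (edgeR adjusted p = 0.549).

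Without stimulated replicate 2 the log2 fold changes of Col6a1, Col6a2 and Col6a3 in stimulated over blank were -0.37, -0.34 and -0.32, and in stimulated over SUI 0.47, 0.49 and 0.82. Without stimulated replicate 1 the values in stimulated over blank were 0.27, 0.28 and 0.30, and Col6a3 reached 0.36 without blank replicate 1. The near equality of stimulated and blank muscles in collagen VI thus depends on which library is included. In stimulated replicate 2 the 10 markers of fibro-adipogenic progenitors, the connective tissue cells of muscle, summed to 3631 CPM, against 1371 and 2332 CPM in the other stimulated libraries, 1405 to 1789 CPM in SUI and 1582 to 2170 CPM in blank. Leukocyte markers summed to 372 CPM in that library, against 66.0 and 187 CPM in the other stimulated libraries, 106 to 166 CPM in SUI and 142 to 237 CPM in blank. The part of either list in the collagen VI values was not tested.

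Col6a1 and Col6a2 kept the closest ratio of the 8 examined, from 0.976 to 1.13 in FPKM over the 9 libraries, and their difference between groups was at most 0.03 on the log2 scale. Col6a3 over Col6a1 was 0.299, 0.297 and 0.293 in stimulated muscles, 0.174, 0.189 and 0.376 in SUI muscles, and 0.415, 0.227 and 0.243 in blank muscles. The stimulated ratios were nearly equal to each other, whereas SUI and blank each held a library well above its group. The ratio of collagen VI to collagen IV, chosen after the values were seen and given without a test, was 0.755, 1.35 and 1.13 in stimulated muscles for Col6a1 over Col4a1, 1.02, 1.42 and 0.837 in SUI muscles, and 2.03, 1.93 and 1.69 in blank muscles. Every library with the model, stimulated or not, had less Col6a1 per Col4a1 than every blank library. Ratios of the other collagen VI chains to collagen IV chains are not given.

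**Figure D2:**
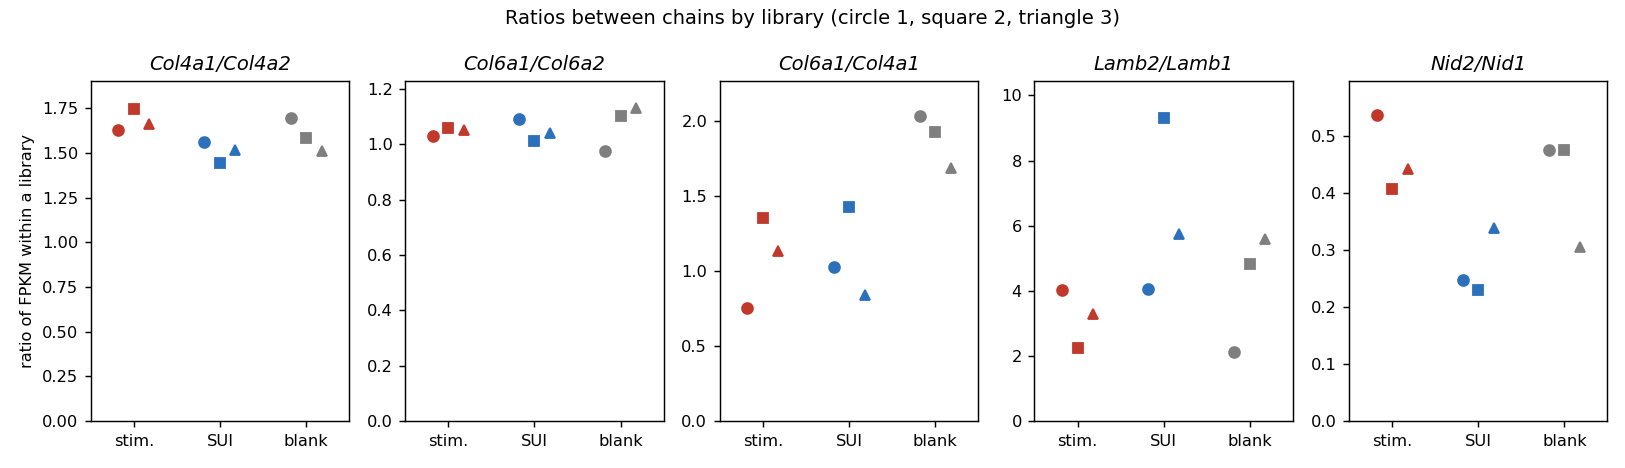
Ratio of FPKM between 2 chains within each library (y axes from 0) for stimulated, SUI and blank muscles; circle, square and triangle are replicates 1, 2 and 3. Col6a1 over Col6a2 stays between 0.976 and 1.13, whereas Col6a1 over Col4a1 is 1.69 to 2.03 in blank and 0.755 to 1.42 in the other libraries.

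RefSeq's table matched 9 of the 10 genes, all but Col6a2. The windows of Col6a1 and Col6a3 hold 5 CpG each and no GC box, and that of Lama2 holds 4 CpG and 1 GC box, whereas the other 6 hold 18 to 38 CpG and 2 to 6 GC boxes. Over all 33469 windows 33.1% hold the GC box, 37.5% CCAAT, 14.2% TATAAA and 50.1% CAGAC, the core of Smad sites, and among the 9 these letters occur in 7, 4, 0 and 3. A match is only a match of letters. The windows of Col6a1 (chr20:11905440-11905739, plus strand), Col6a3 (chr9:98886909-98887208, minus strand) and Hspg2 (chr5:154960596-154960895, plus strand) are shown in GRCr8, 5′ to 3′ on the strand of the gene, to set windows without a GC box beside the window that holds most of them, with GC boxes in capitals.
Col6a1: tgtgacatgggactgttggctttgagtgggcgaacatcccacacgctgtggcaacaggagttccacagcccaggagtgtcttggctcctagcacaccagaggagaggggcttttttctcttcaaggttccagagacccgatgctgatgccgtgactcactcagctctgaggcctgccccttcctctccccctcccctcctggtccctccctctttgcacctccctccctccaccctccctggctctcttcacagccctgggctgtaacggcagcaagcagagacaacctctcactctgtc
Col6a3: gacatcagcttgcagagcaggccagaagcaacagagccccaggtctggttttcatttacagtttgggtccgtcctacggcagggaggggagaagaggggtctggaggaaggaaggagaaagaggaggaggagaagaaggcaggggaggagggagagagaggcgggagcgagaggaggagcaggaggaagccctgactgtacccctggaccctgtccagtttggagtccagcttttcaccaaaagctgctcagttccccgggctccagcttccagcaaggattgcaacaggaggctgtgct
Hspg2: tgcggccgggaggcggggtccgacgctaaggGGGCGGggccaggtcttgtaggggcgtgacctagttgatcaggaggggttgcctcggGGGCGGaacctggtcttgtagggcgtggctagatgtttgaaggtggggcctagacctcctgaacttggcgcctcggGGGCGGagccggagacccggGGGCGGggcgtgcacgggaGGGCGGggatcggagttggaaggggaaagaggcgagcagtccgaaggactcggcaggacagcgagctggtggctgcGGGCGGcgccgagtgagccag

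Laminin trimers hold 1 alpha, 1 beta and 1 gamma chain. Lama2 (ENSRNOG00000011134, chromosome 1, 17672536 to 18320530, plus strand), the alpha chain of the main laminin around muscle fibres, measured 59.9, 86.1 and 77.5 CPM in stimulated muscles, 53.9, 60.8 and 72.5 CPM in SUI muscles, and 69.7, 52.9 and 64.1 CPM in blank muscles. The groups overlapped in each comparison, and Lama2 had the narrowest range of the 10 genes, 1.63-fold. Its log2 fold change was 0.26 ± 0.21 in stimulated over SUI, 0.26 ± 0.21 in stimulated over blank and 0.0036 ± 0.21 in SUI over blank, with adjusted p of 0.823, 0.898 and 0.996 by edgeR.

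Lamb1 (ENSRNOG00000005678, chromosome 6, 47835525 to 47902585, plus strand), the widespread beta chain, measured 46.2, 90.3 and 60.0 CPM in stimulated muscles, 36.6, 18.3 and 31.2 CPM in SUI muscles, and 46.0, 39.6 and 33.0 CPM in blank muscles. In CPM all stimulated libraries lay above all SUI and all blank libraries, though stimulated replicate 1 exceeded blank replicate 1 by little. In FPKM stimulated replicate 1 (5.82) lay below SUI replicate 1 (6.61) and blank replicate 2 (5.96). In stimulated over SUI the log2 fold change was 1.19 ± 0.32, with the smallest adjusted p of the 10 genes (0.421 by edgeR). It was 0.73 ± 0.31 in stimulated over blank and -0.46 ± 0.31 in SUI over blank.

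Lamc1 (ENSRNOG00000002680, chromosome 13, 65374372 to 65501492, minus strand), the gamma chain common to most laminins, measured 255, 220 and 194 CPM in stimulated muscles, 143, 149 and 158 CPM in SUI muscles, and 234, 168 and 220 CPM in blank muscles. In CPM the 3 SUI libraries lay close together and below all 6 others. In FPKM SUI replicate 1 (20.2) lay above blank replicates 1 and 2 (18.7 and 19.4). Lamc1 had log2 fold changes of 0.57 ± 0.20 in stimulated over SUI, 0.10 ± 0.20 in stimulated over blank and -0.47 ± 0.20 in SUI over blank (edgeR adjusted p = 0.52, 0.936 and 0.6). Lama2 per Lamc1 in FPKM was 0.297, 0.321 and 0.360 in SUI muscles, above 0.233, 0.248 and 0.228 in blank muscles without overlap (exact permutation p = 0.1, adjusted 0.6). In stimulated muscles this ratio was 0.185, 0.308 and 0.315, on both sides of the blank values.

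Nid1 (ENSRNOG00000002461, chromosome 17, 86085077 to 86158267, plus strand) encodes nidogen, which links laminin to collagen IV. It measured 74.5, 158 and 106 CPM in stimulated muscles, 66.2, 47.4 and 66.1 CPM in SUI muscles, and 50.9, 74.0 and 80.0 CPM in blank muscles. In CPM the stimulated libraries lay above all SUI libraries, and stimulated replicate 1 lay within the blank range. In FPKM stimulated replicate 1 (9.33) lay below SUI replicate 1 (12.1). The log2 fold change was 0.91 ± 0.30 in stimulated over SUI, 0.72 ± 0.30 in stimulated over blank and -0.19 ± 0.30 in SUI over blank.

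Hspg2 (ENSRNOG00000021437, chromosome 5, 149677476 to 149778594, plus strand) encodes perlecan, the large heparan sulphate proteoglycan of basement membranes. It measured 214, 278 and 223 CPM in stimulated muscles, 105, 103 and 162 CPM in SUI muscles, and 116, 179 and 156 CPM in blank muscles. All stimulated libraries lay above all others, and SUI and blank overlapped. Hspg2 had log2 fold changes of 0.95 ± 0.26 in stimulated over SUI (edgeR adjusted p = 0.425), 0.66 ± 0.26 in stimulated over blank and -0.29 ± 0.25 in SUI over blank. Over the alternatives the adjusted p of Hspg2 in stimulated over SUI was under 0.05 with DESeq2 alone.

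Counted by separation in CPM, 6 of the 10 genes were higher without overlap in stimulated over SUI, beside 9.52% of all genes. In stimulated over blank 4 of 10 were higher, beside 7.9%, and in SUI over blank 4 of 10 were lower, beside 7.77%. Part of this separation was absent without the TMM scaling. The share of all genes that separate in FPKM is not given, so the 10 cannot be set against it. In FPKM, which are not scaled by TMM, stimulated and SUI overlapped for Col4a1, Lamb1 and Nid1, and stimulated and blank for Lamb1. SUI and blank overlapped in FPKM for Col6a1, Col6a2 and Lamc1. The 10 had a median log2 fold change of 0.88, 0.46 and -0.38 in these comparisons, beside 0.02, 0.04 and 0.01 for the 16256 genes. Without stimulated replicate 2 the median in stimulated over SUI was 0.59. The 3 comparisons share libraries, so their values are not independent of each other.

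**Figure D3:**
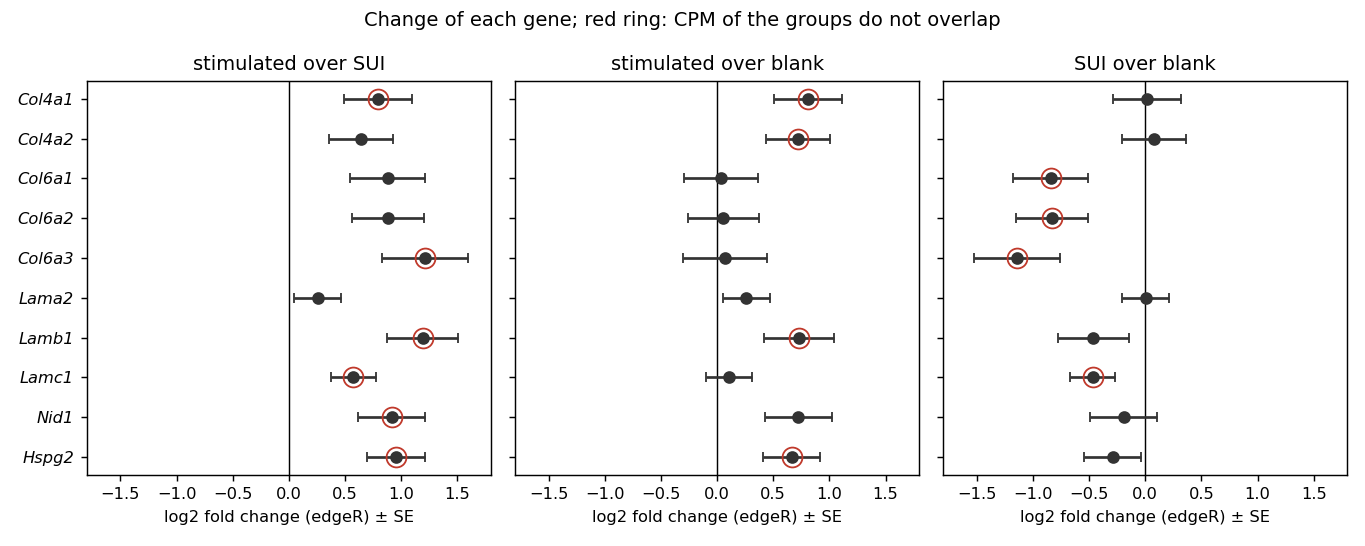
edgeR log2 fold change ± SE (x axis) of each gene (y axis) in stimulated over SUI, stimulated over blank and SUI over blank; red rings mark genes whose CPM do not overlap between the groups. Collagen IV lies near 0 in SUI over blank and collagen VI near 0 in stimulated over blank.

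Per library, stimulated replicate 2 and stimulated replicate 3 had all 10 genes above their own 9-library means, by a mean of 0.81 and 0.28 log2 units, and stimulated replicate 1 had 5, with a mean of 0.12. In SUI the numbers above the mean were 2, 0 and 2 of 10, with means of -0.20, -0.78 and -0.28. In blank they were 6, 4 and 4, with means of 0.02, 0.07 and -0.04. Stimulated replicate 1 combined high collagen IV, Lamc1 and Hspg2 with low collagen VI, and blank replicate 1 combined high collagen VI with low collagen IV, Nid1 and Hspg2.

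**Figure D4:**
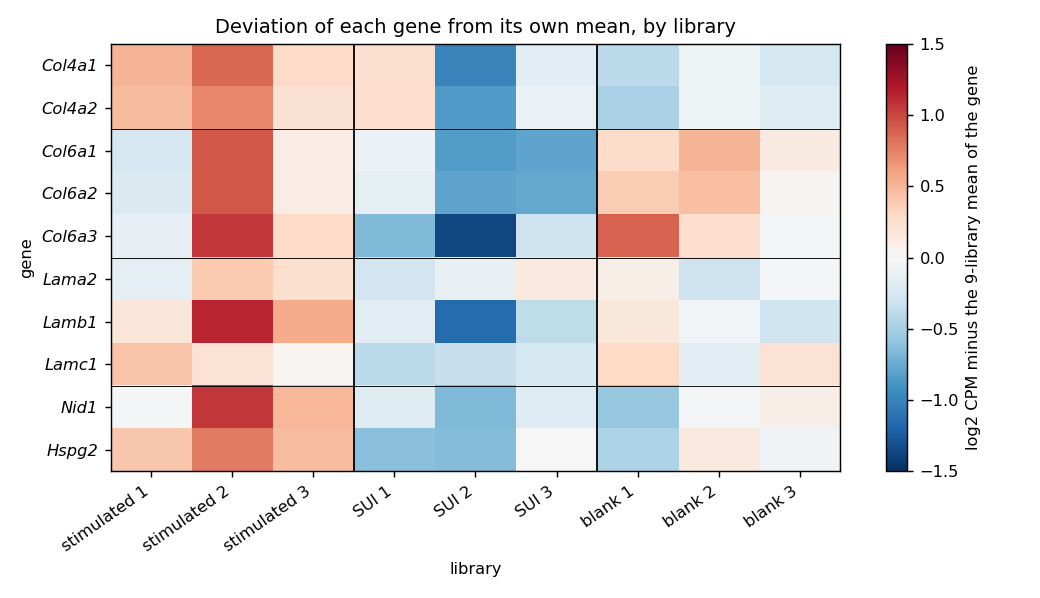
Colour gives log2 CPM minus the 9-library mean of each gene (rows) in each library (columns: stimulated, SUI, blank). Stimulated replicate 2 is above the mean for all 10 genes and SUI replicate 2 below it for all 10.

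Levels per length were ordered from the FPKM, which are not scaled by TMM. Over all 9 libraries Col6a1 averaged 30.3 ± 13.4 FPKM (SD, n = 9), Col6a2 28.5 ± 12.2, Col4a1 23.6 ± 10.0, Lamc1 20.9 ± 3.55, Col4a2 14.7 ± 5.69, Nid1 11.6 ± 5.46, Hspg2 10.0 ± 3.75, Col6a3 8.27 ± 3.98, Lamb1 6.38 ± 3.25 and Lama2 5.71 ± 1.12. Of the neighbours in this order, Col4a2 was above Nid1 in 9 of 9 libraries, and Col6a1 above Col6a2, Lamc1 above Col4a2, Hspg2 above Col6a3 and Col6a3 above Lamb1 in 8 of 9. Col6a2 and Col4a1, Col4a1 and Lamc1, Nid1 and Hspg2, and Lamb1 and Lama2 kept their order in 6 of 9. Taken as log2 differences within libraries, the steps from Col6a1 to Col6a2, Lamc1 to Col4a2 and Col4a2 to Nid1 exceeded 1 SD over the libraries, and the other 6 steps did not differ beyond that spread. Per length, Lamc1 was thus above Lama2 and Lamb1, the alpha and beta chain genes among the 10, in mean FPKM. Lamb2, a beta chain gene outside the 10, ran from 10.4 to 31.0 FPKM, beside 16.5 to 25.9 for Lamc1.

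Lamb2, the beta chain concentrated at the neuromuscular synapse, exceeded Lamb1 in every library, at 4.02, 2.23 and 3.30 times in stimulated muscles, 4.04, 9.31 and 5.74 times in SUI muscles, and 2.12, 4.83 and 5.60 times in blank muscles. The stimulated ratios lay below the SUI ratios, the highest at 4.02 against 4.04 (exact permutation p = 0.1, adjusted 0.6). Nid2 per Nid1 was 0.536, 0.406 and 0.441 in stimulated muscles, 0.248, 0.229 and 0.337 in SUI muscles, and 0.475, 0.475 and 0.304 in blank muscles. The stimulated ratios again did not overlap SUI (exact permutation p = 0.1, adjusted 0.6). Lama4, an alpha chain of vessels, ran from 0.406 to 1.36 per Lama2, and its groups overlapped in each comparison.

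Among the 7 other chains of collagen IV and VI, 6 were positive in stimulated over SUI and 6 negative in SUI over blank, with medians of 0.40 and -0.45. edgeR called 0. At an unadjusted edgeR p under 0.05, 3 of 7 were higher in stimulated over SUI (5.23% of all genes) and 1 of 7 lower in SUI over blank (5.34%). DESeq2 called 1 of 7, Col6a6 in stimulated over SUI (1.28% of all genes). Those with the smallest p were Col6a6, Col4a5, Col6a4 and Col4a4. Col6a6, which can take the place of the Col6a3 chain, averaged 18.8 ± 7.86 CPM in stimulated muscles, 3.73 ± 1.99 CPM in SUI muscles and 9.35 ± 0.55 CPM in blank muscles (SD, n = 3 each), with no overlap between any pair of groups. Its log2 fold change of 2.33 ± 0.40 in stimulated over SUI had an edgeR adjusted p of 0.181. Col4a5 averaged 16.2 ± 1.55 CPM in stimulated muscles and 10.1 ± 2.16 CPM in SUI muscles. Col6a4 stayed under 1 CPM in each group mean, and Col4a4 differed by 0.40 ± 0.22 in stimulated over SUI.

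Of the 8 other laminin chains, 6 were positive in stimulated over SUI and 5 negative in SUI over blank. edgeR and DESeq2 called 0. At an unadjusted edgeR p under 0.05, 2 of 8 were higher in stimulated over SUI (5.23% of all genes) and 1 lower (2.77%), the sparsely counted Lama1, and 0 were past it in SUI over blank. Lama4 averaged 48.5 ± 22.5 CPM in stimulated muscles, 24.3 ± 6.39 CPM in SUI muscles and 39.7 ± 6.22 CPM in blank muscles. Lama5, found in mature vessels and at synapses, averaged 34.0 ± 5.76 CPM in stimulated muscles, 30.5 ± 4.79 CPM in SUI muscles and 20.0 ± 7.34 CPM in blank muscles, so that it was higher than blank in both groups with the model. Lama3 averaged 6.77 ± 2.71 CPM in stimulated muscles and 2.82 ± 2.08 CPM in SUI muscles. Lama1 had 3, 0 and 0 counts in stimulated, 8, 3 and 14 in SUI and 11, 7 and 7 in blank libraries, too few for a fold.

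Of 15 other basement membrane components, 14 were positive in stimulated over SUI (median 0.88) and 12 negative in SUI over blank (median -0.55). edgeR called 0. At an unadjusted edgeR p under 0.05, 8 of 15 were higher in stimulated over SUI (5.23% of all genes) and 4 of 15 lower in SUI over blank (5.34%). DESeq2 called 5 of 15 in stimulated over SUI (1.28% of all genes): Nid2, Col15a1, Papln, Hmcn1 and Sparc. Nid2, the second nidogen, averaged 40.8 ± 10.0 CPM in stimulated muscles, 13.4 ± 4.64 CPM in SUI muscles and 22.6 ± 5.09 CPM in blank muscles, with no overlap between any pair of groups and a log2 fold change of 1.61 ± 0.30 in stimulated over SUI (edgeR adjusted p = 0.266). Col15a1, a multiplexin that joins basement membranes to the fibrils outside, averaged 119 ± 31.2 CPM in stimulated muscles, 31.1 ± 18.9 CPM in SUI muscles and 73.9 ± 17.5 CPM in blank muscles, also apart in each comparison. Papln (papilin) had a log2 fold change of 2.41 ± 0.51 and Hmcn1 (hemicentin) of 1.31 ± 0.33 in stimulated over SUI. By this measure Nid2 and Col15a1 differed more between stimulated and SUI than Nid1 and Hspg2 did, and the difference itself was tested only for Nid2 against Nid1, above.

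Of 15 receptors, 14 were positive in stimulated over SUI, with a median of 0.24, and 0 were called by edgeR or DESeq2, with 1 of 15 higher at an unadjusted edgeR p under 0.05, near the 5.23% of all genes. It was the fibrillar collagen receptor Ddr2 (0.95 ± 0.40). Itga6, an integrin chain for laminin, had -1.37 ± 0.61 in SUI over blank, where the groups overlapped and blank averaged 24.8 ± 20.1 CPM. Antxr1, a collagen VI receptor, had -0.98 ± 0.44 in SUI over blank, without overlap. Bcam, a receptor of Lama5 laminins, had 0.50 ± 0.28 in stimulated over SUI, with overlap. Of 17 genes of assembly and modification, 8 were positive and 9 negative in stimulated over SUI, with a median of -0.01, and 0 were called by edgeR and 1 of 17, Loxl2, by DESeq2 (1.28% of all genes). There 2 of 17 were higher at an unadjusted edgeR p under 0.05 (5.23% of all genes), Loxl2 (1.56 ± 0.36), which cross-links collagen IV, and Pxdn, peroxidasin, which forms the sulfilimine bonds of the collagen IV network and averaged 35.0 ± 19.7 CPM in stimulated muscles and 13.2 ± 4.67 CPM in SUI muscles. Plod2, a lysyl hydroxylase, had -0.99 ± 0.31 in SUI over blank, and Mia3, needed to export collagen, -0.54 ± 0.25 in stimulated over blank.

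Of 14 proteases and inhibitors 13 matched a row, of which 5 were positive in stimulated over SUI and 7 in SUI over blank. edgeR called 0. At an unadjusted edgeR p under 0.05, 2 of 13 were higher in stimulated over SUI (5.23% of all genes), and in SUI over blank 1 was higher (2.84%), Ctsl, and 2 lower (5.34%). Mmp15 in stimulated over SUI was called by DESeq2 (1.28% of all genes) and by voom (0.252%), and DESeq2 also called Mmp15 and Mmp9 in SUI over blank (1.09%) and Mmp9 in stimulated over blank (0.13%). Mmp15, a membrane-bound metalloproteinase, averaged 46.4 ± 4.55 CPM in stimulated muscles, 20.3 ± 4.90 CPM in SUI muscles and 47.7 ± 15.6 CPM in blank muscles. Mmp9, a gelatinase that cuts collagen IV, averaged 0.133 ± 0.0655 CPM in stimulated muscles, 0.293 ± 0.360 CPM in SUI muscles and 2.24 ± 1.06 CPM in blank muscles, so that it was lower in both groups with the model. Bmp1, which trims procollagens, had a log2 fold change of 0.98 ± 0.27 in stimulated over SUI, with 23.3 ± 9.17 CPM in stimulated muscles and 11.9 ± 1.20 CPM in SUI muscles. Ctsl, a lysosomal protease, measured 265, 70.2 and 88.3 CPM in SUI muscles and 42.8, 60.7 and 78.5 CPM in blank muscles, which overlapped, and its 1.22 ± 0.46 in SUI over blank had 1 SUI library far above the others.

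The 5 fibrillar collagen genes had median log2 fold changes of 1.86 in stimulated over SUI, 0.31 in stimulated over blank and -1.42 in SUI over blank, where the 10 genes had 0.88, 0.46 and -0.38. Col5a1 averaged 54.9 ± 32.6 CPM in stimulated muscles, 15.5 ± 2.36 CPM in SUI muscles and 41.5 ± 2.06 CPM in blank muscles. Col1a1, Col3a1 and Col1a2 had log2 fold changes of 2.44 ± 0.59, 1.90 ± 0.48 and 1.86 ± 0.52 in stimulated over SUI. Whether these medians differ from that of the 10 genes was not tested, and edgeR called 0 of the 5. At an unadjusted edgeR p under 0.05, all 5 were higher in stimulated over SUI (5.23% of all genes) and 4 lower in SUI over blank (5.34%), and DESeq2 called 4 (1.28%) and 2 (1.09%).

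The 8 genes whose pattern over the 9 libraries came closest to the mean pattern of the 10, by the root mean square difference of centred log2 CPM, were Septin4, Dpysl2, Itih5, Klhl42, Col5a2, Ptgfrn, Fam171a1 and Wdhd1. Their differences ran from 0.133 to 0.163 log2 units, against a median of 0.548 over 11257 candidates and 0.225 to 0.402 for the 10 genes themselves. Col5a2, a chain of fibrillar collagen V, was the only collagen among them.

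Marker lists of cell types were set beside the genes. In stimulated over SUI 10 of 10 fibro-adipogenic progenitor markers were positive with a median of 1.31, Lum, Mfap5, Cd34 and Smoc2 having the smallest p, and in SUI over blank 10 of 10 were negative with a median of -0.52. Of 9 endothelial markers 7 were positive in stimulated over SUI (median 0.43), and Tek (-0.38) and Vwf (-0.27) were negative. The 4 endothelial markers with the smallest p over the 3 comparisons had 1.21 (Emcn), 0.96 (Cldn5), 0.87 (Cdh5) and 0.78 (Kdr) in stimulated over SUI. In SUI over blank they had -1.19, -0.10, -0.56 and -1.54, and the other 5 were positive. In stimulated over blank 8 of 9 were positive, and Kdr had -0.76. The summed endothelial level was 362 to 466 CPM in stimulated, 259 to 338 CPM in SUI and 231 to 346 CPM in blank libraries. Smooth muscle and pericyte markers summed to 377 to 451, 290 to 378 and 327 to 503 CPM, with 8 of 9 positive in stimulated over SUI and a median of 0.23. Schwann cell markers had 6 of 7 positive (median 0.24), satellite cell markers 6 of 6 (0.60), adipocyte markers 3 of 6 (-0.06), leukocyte markers 5 of 7 (0.69) and muscle fibre markers 7 of 7 measured (0.19). In SUI over blank the positive counts of these 7 lists, from endothelial to fibre markers, were 5 of 9, 3 of 9, 1 of 7, 2 of 6, 6 of 6, 1 of 7 and 2 of 7. No marker was at 0 in any library. edgeR called 0 of the 61 markers tested, and DESeq2 called 1, Lum in stimulated over SUI (1.28% of all genes). In the same comparison 9 of 61 were higher at an unadjusted edgeR p under 0.05 (5.23% of all genes), 5 of them progenitor, 3 endothelial and 1 leukocyte markers, and 8 of 61 were lower in SUI over blank (5.34%). In SUI replicate 1 the fibre markers lay 0.62 log2 units below their mean. In stimulated replicate 1 the progenitor markers lay 0.43 below theirs. There Col4a1 and Col4a2 deviated by 0.51 and 0.47, and Col6a1, Col6a2 and Col6a3 by -0.26, -0.22 and -0.12. The part of cell makeup in the values of the 10 genes was not tested.

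**Figure D5:**
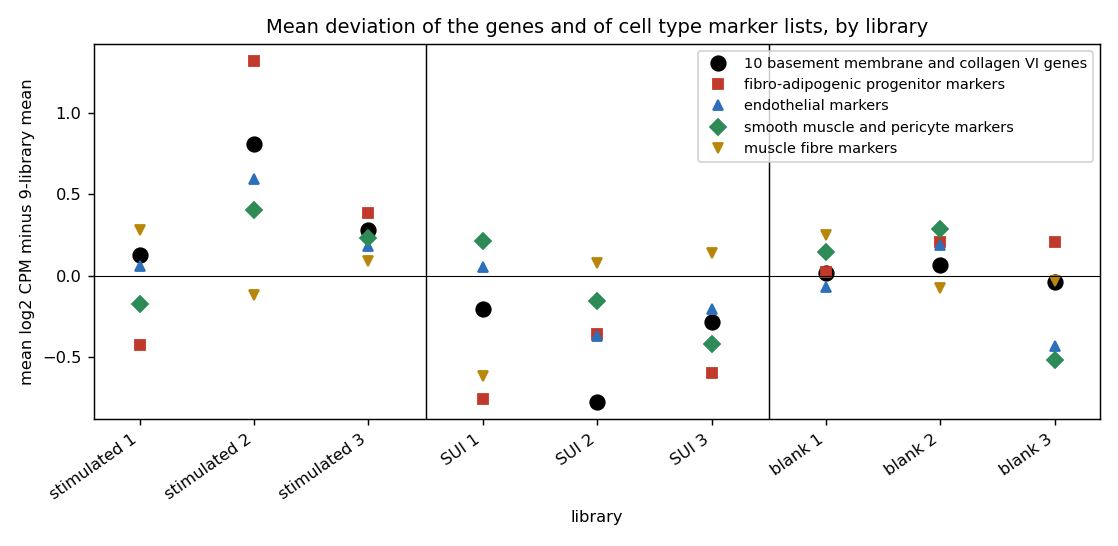
Mean log2 CPM minus the 9-library mean (y axis) of the 10 genes (black) and of 4 marker lists in each library. In stimulated replicate 2 the 10 genes lie 0.81 and the fibro-adipogenic progenitor markers 1.32 above their means. In stimulated replicate 1 the 10 genes lie 0.12 above on average, with 5 of the 10 above their own means, and these markers 0.43 below.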

How the data were processed

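Muscle RNA of 3 stimulated, 3 SUI and 3 blank rat libraries was analysed, grouped by sample title. In the library names the SUI group is "sham". Bowtie2, RSEM 1.3.1, DESeq2 1.4.5 and the build mRatBN7.2 are named in the submitters' processing notes, without roles. The authors deposited expected counts, which hold whole numbers in every cell, and FPKM. Rows were used as deposited. Of 30518, 4341 lack a symbol and 916 have an Ensembl ID that occurs more than once.

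Counts were filtered with filterByExpr (16256 genes), scaled by TMM and tested with edgeR 4.0.16 in R 4.3.3 (quasi-likelihood F test, robust, all 9 libraries in one fit, Benjamini-Hochberg adjustment over all genes, threshold 0.05). SE is the log2 fold change over the square root of F. Centred log2 CPM used a prior count of 2. Chain ratios are of deposited FPKM, tested by exact permutation. The edgeR step was tested on simulated data. The genes and lists were chosen with earlier results of these data known. Named genes are the 10, up to 4 per list by smallest p, the ratio partners and the 8 of closest pattern; Sparc was named after its call was seen. Of 143 other list genes, 141 matched and were tested; Timp2 and Mylpf did not match. A count of 3 corresponds to 0.021 to 0.0794 CPM, counting error only. Alternatives used DESeq2 1.42.0 and limma 3.58.1, other scalings and filters, each library left out, and a replicate block. All libraries carry one batch label. Promoter windows are RefSeq's (GRCr8), and gene positions are those of the deposited tables (mRatBN7.2).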

Additional observations from a re-analysis of the deposited data

How the results depend on the processing

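Of 600 alternative values of the 10 genes' log2 fold changes, 570 kept their direction and 30 reversed, all 30 for differences between -0.19 and 0.10, and 1 was newly called, Hspg2 in stimulated over SUI by DESeq2 (0.94, adjusted p = 0.0363). In SUI over blank, Col4a1 and Lama2 turned negative with DESeq2 size factors (-0.00086 and -0.017), a mean CPM of at least 1 (-0.012 and -0.027), the DESeq2 test (-0.00087 and -0.016) and the replicate block (-0.0085 and -0.0099). With voom Col4a1 was -0.30 and Col4a2 -0.23 in SUI over blank, and Col6a1 -0.17 and Col6a2 -0.10 in stimulated over blank. Nid1 in SUI over blank was 0.031 with limma on log2(FPKM + 1) and 0.040 on log2(FPKM + 0.1). Leaving out 1 library, SUI over blank ran from -0.30 to 0.27 for Col4a1, -0.21 to 0.32 for Col4a2 and -0.12 to 0.10 for Lama2, and stimulated over blank from -0.37 to 0.27 for Col6a1, -0.34 to 0.28 for Col6a2, -0.32 to 0.36 for Col6a3 and -0.024 to 0.20 for Lamc1. The 10 genes' median in stimulated over SUI then ran from 0.59 to 1.07.

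Over all genes, edgeR called 2 in stimulated over SUI, 1 in stimulated over blank and 0 in SUI over blank. DESeq2 called 208, 21 and 176, and voom 41 in stimulated over SUI. The count in stimulated over SUI was 1 with library totals, 0 with limma on either FPKM scale and 0 with only the 6 libraries compared, and in stimulated over blank it was 0 with limma on log2(FPKM + 1) and with only the 6 libraries. Leaving out 1 library gave 0 to 3, 0 to 1 and 0 to 1. In the check for pairing, libraries of the same replicate number correlated little across groups (1 of 9 exceeded 0.1, range -0.218 to 0.113). That check did not compare whole profiles in log2 CPM, where each library's median correlation with the others was 0.92 to 0.968. Over 18 checks of a library against another group, the best match had its own replicate number in 4. Correlations between so few libraries cannot exclude a pairing behind the numbers. With the number as a block, 1 gene was called in stimulated over SUI, 0 in stimulated over blank and 0 in SUI over blank.

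Of 168 alternative chain ratio differences, 156 kept direction. On the log2 scale Col6a1 over Col6a2 ran from -0.027 to 0.026 in stimulated over SUI, -0.092 to 0.014 in stimulated over blank and -0.090 to 0.017 in SUI over blank. In stimulated over blank, Col6a3 over Col6a1 ran from -0.10 to 0.34, Lama4 over Lama2 from -0.29 to 0.11 and Nid2 over Nid1 from -0.054 to 0.27. Lamb1 over Lamc1 ran from -0.31 to 0.21 in SUI over blank. The cause was not tested for any of these. Depth (1736 counts at the least for the 10 genes) limits them less than the spread of 3 libraries per group.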
